A study of Mus musculus with 12 samples.

Results

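The genes described here make and modify long-chain fatty acids, and were measured in mouse leukaemia cells of the T lineage (T-ALL, T-cell acute lymphoblastic leukaemia): the synthesis genes Acly, Acaca and Fasn, the elongases Elovl5 and Elovl6, the desaturases Scd1, Scd2, Fads1 and Fads2, and the acyl-CoA binding protein gene Dbi. They were found by symbol, and each of the 10 had its own entry among the 23174 genes of both deposited expression tables. They were chosen by their FPKM values with and without AMD3100, which were already known. Their differences in those cultures are therefore given as a description, with no p-value for a member. The tumours are other samples, and there the test across all genes is given.

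Polyadenylated RNA from 12 samples of the C57BL/6 strain had been sequenced, in groups of 3. The ex vivo groups were Notch1-deltaE+ T-ALL cells given AMD3100, an inhibitor of the chemokine receptor Cxcr4, and the same kind of cells given vehicle. The tumour groups were primary Notch1-deltaE+ T-ALL of the genotype Cxcr4-/- (tumours 5, 7 and 8) and of the genotype Cxcr4+/+ (tumours 1, 2 and 4). All samples were thus labelled Notch1-deltaE+, an activated form of Notch1. The labels describe splenic leukaemia cells grown with IL-7 at 5 ng/ml over a feeder layer of OP9, a mouse stromal line whose division had been stopped with mitomycin C. That description stands at every sample, and whether the tumours passed through culture cannot be read from it. The sources used here do not give the dose and time of AMD3100, the age of the animals or the cells that lost Cxcr4 in the knockout.

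Fatty acid synthesis starts from citrate, which ATP-citrate lyase (Acly) splits to give cytosolic acetyl-CoA. Acetyl-CoA carboxylase (Acaca) turns this into malonyl-CoA, and fatty acid synthase (Fasn) builds palmitate from both. Elongases lengthen the chain, stearoyl-CoA desaturases (Scd1, Scd2) place its first double bond, and Fads1 and Fads2 place further double bonds in polyunsaturated chains. Many of these genes are known targets of the transcription factor Srebf1, and dividing lymphocytes and leukaemia cells use the pathway to build membranes.

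The promoters of the members were looked at because most of the genes were lower together in the AMD3100 cultures. RefSeq windows (build GRCm38.p6, from 250 bases before to 50 bases after an annotated start) were found for 7 members (not for Scd1, Scd2 and Fads1), with 2 windows for Dbi, so 8 windows in all. Those of Fasn and Acly, which were lower with AMD3100, and of Elovl5, whose groups overlapped, are shown 5′ to 3′ on the strand of the gene. They lie at chr11:120824498-120824797 on the minus strand (Fasn), chr11:100527951-100528250 on the minus strand (Acly) and chr9:77917115-77917414 on the plus strand (Elovl5). Capitals mark CCAAT, the core of the NF-Y site, and GGGCGG, the GC box bound by Sp factors, on either strand (ATTGG and CCGCCC on the other strand).
Fasn: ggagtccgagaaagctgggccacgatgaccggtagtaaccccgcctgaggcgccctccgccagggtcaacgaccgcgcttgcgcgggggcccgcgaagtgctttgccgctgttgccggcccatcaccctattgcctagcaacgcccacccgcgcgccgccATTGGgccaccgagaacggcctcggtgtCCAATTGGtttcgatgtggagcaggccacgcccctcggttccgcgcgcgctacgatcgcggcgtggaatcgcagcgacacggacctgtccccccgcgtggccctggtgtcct
Acly: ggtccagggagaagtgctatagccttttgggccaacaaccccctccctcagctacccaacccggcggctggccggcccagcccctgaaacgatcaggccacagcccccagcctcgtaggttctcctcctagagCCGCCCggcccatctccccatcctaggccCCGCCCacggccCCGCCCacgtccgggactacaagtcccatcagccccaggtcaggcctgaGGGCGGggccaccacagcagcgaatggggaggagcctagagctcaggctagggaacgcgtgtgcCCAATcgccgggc
Elovl5: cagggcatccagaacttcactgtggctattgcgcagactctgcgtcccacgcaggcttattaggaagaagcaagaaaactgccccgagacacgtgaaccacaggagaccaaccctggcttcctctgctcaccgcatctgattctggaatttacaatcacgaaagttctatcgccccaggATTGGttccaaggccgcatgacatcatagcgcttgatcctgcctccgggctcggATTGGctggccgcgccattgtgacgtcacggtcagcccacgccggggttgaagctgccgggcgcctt

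Searched on both strands, CCAAT was in 5 of the 8 member windows (Acly, both of Dbi, Elovl5 and Fasn) and in 37.4% of all 32851 windows in the table. GGGCGG was in 2 member windows (Acly and Fads2) and in 35.7% of all windows. In Fasn the matches began at positions -90, -62 and -59, with 0 as the first transcribed base, and the last 2 overlap each other and a CANNTG E-box at -61. In Acly there were GC boxes at -117, -88, -76 and -27 and a CCAAT at 37. Elovl5 had CCAAT on the other strand at -71 and -17, and was the member with a full E-box CACGTG, at -161, which 7.15% of all windows hold. The looser E-box CANNTG was in 5 member windows (Acaca, both of Dbi, Elovl5 and Fasn) and in 72.3% of all windows. The sterol regulatory elements TCACCCCAC, TCACNCCAC and TCACNCNAC were in none of the 8 windows of these 7 members and in 0.551%, 1.24% and 2.7% of all windows. CCAAT thus stood in windows of some members that were lower and in that of Elovl5, and was absent from those of Acaca, Elovl6 and Fads2.

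Levels are given in FPKM (fragments per kilobase, scaled to each library's mapped total), the authors' deposited unit. All 15 T cell markers examined were above 0 in every library. Their summed level was 5525 to 6004 FPKM in AMD3100 samples and 6249.5 to 6699 FPKM in vehicle samples. The genotype labels were checked on Cxcr4 first: it stood at 23.2, 78.9 and 21.9 FPKM in knockout tumours 5, 7 and 8, against 241, 155 and 206 FPKM in wild-type tumours 1, 2 and 4. The groups did not overlap, yet knockout tumour 7 kept a clear signal and limma gave an adjusted p of 0.986. Xist, the RNA of the inactive X chromosome, was at 0.829, 2.80 and 2.69 FPKM in knockout tumours and at 143, 96.4 and 147 FPKM in wild-type tumours, and the Y-linked gene Eif2s3y was at 38.3, 34.2 and 24.5 FPKM in knockout tumours against 0, 0 and 0.0862 FPKM in wild-type tumours. Sex and genotype therefore cannot be told apart in the tumours. Red cell RNA also differed widely: summed erythroid markers were 87307, 8518 and 18056 FPKM in the knockout tumours and 3546, 17254 and 102712 FPKM in the wild-type tumours. Knockout tumour 8 listed the most genes at 0, 13231, against 10423 to 11433 in the other tumours.

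With AMD3100, the members together stood at 773, 886 and 945 FPKM in samples 1, 2 and 3, against 1309, 1311 and 1344 FPKM in the vehicle samples. Each of the 10 had a lower mean with AMD3100 on the log2(FPKM + 1) scale used for every difference below. The median difference of the members was -0.60, and that of all 10245 genes tested was 0.0022. In 8 of the 10 no AMD3100 sample reached the lowest vehicle sample, which was so for 15.8% of all genes. The exceptions were the elongases Elovl5 and Elovl6. AMD3100 and vehicle samples carry the same numbers 1 to 3, and 9 of the 10 members were lower in 3 of 3 same-numbered pairs, as were 29.4% of all genes. In bulk RNA, fewer cells that express a gene and less of its RNA per cell cannot be told apart.

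Limma without pairing called 2 members lower at an adjusted p under 0.05, Scd1 and Dbi, beside 0.0781% of all genes. With the sample number as a block it called 7 lower (Scd1, Scd2, Fasn, Acly, Fads1, Fads2 and Dbi), beside 9.92% of all genes. Acaca, Elovl5 and Elovl6 were not called. Leaving out any 1 of the 6 libraries left no member called without pairing, and 3 to 5 of all genes. With pairing, 0 members were called without the samples numbered 1, beside 9 of 10220 genes. Without those numbered 2 it was 0 members, beside 7 of 10137 genes. Without those numbered 3 it was 7 members, beside 1207 of 10245 genes. Since these cultures chose the members, nothing is read from the counts.

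**Figure D1:**
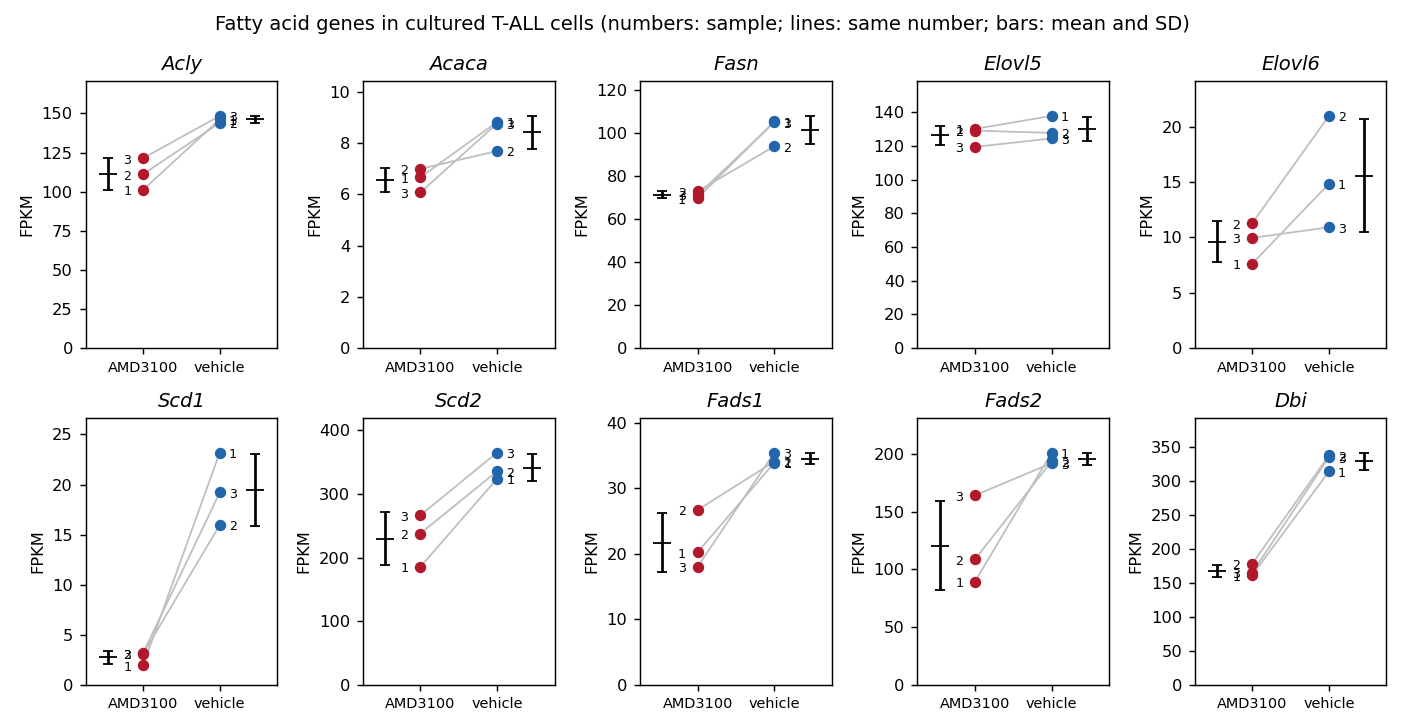
FPKM of the 10 genes in AMD3100 samples (red, left) and vehicle samples (blue, right); digits give the sample number, grey lines join samples of the same number, and bars give mean and SD of 3. Scd1 is at 1.95 to 3.16 FPKM with AMD3100 and at 16.0 to 23.2 FPKM with vehicle, while the groups of Elovl5 and of Elovl6 overlap.

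Of the synthesis genes, Acly stood at 101, 111 and 121 FPKM in AMD3100 samples 1, 2 and 3, against 146, 144 and 148 FPKM in vehicle samples 1, 2 and 3. The vehicle samples were close together and all AMD3100 samples lay below them, with sample 1 lowest. The means were 111 ± 10.1 FPKM with AMD3100 and 146 ± 2.23 FPKM with vehicle (SD, n = 3 each), a log2 difference of -0.40 (SE 0.09). Every SE given here and below is that of the limma fit without pairing, also where pair differences stand beside it.

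Acaca, which makes malonyl-CoA, the building block of each added carbon pair, was low throughout. It had 6.67, 7.00 and 6.08 FPKM in AMD3100 samples and 8.83, 7.70 and 8.77 FPKM in vehicle samples. The groups did not overlap, but the samples numbered 2 came within -0.12 of each other on the log2 scale. The mean log2 difference was -0.31 (SE 0.12). A limit applies to its level: of the 50-base stretches in its transcripts (GENCODE, GRCm38), 30.4% also occur in other genes, 29.2% in Gm5182, so its reads may be split between copies.

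Fasn stood at 69.6, 72.9 and 71.2 FPKM in AMD3100 samples, against 105, 93.8 and 105 FPKM in vehicle samples. The AMD3100 samples were nearly level with each other, at 71.3 ± 1.63 FPKM against 101 ± 6.57 FPKM with vehicle (SD, n = 3 each). The log2 difference was -0.50 (SE 0.08), which left Fasn at 70.3% of its vehicle level. No 50-base stretch of Fasn, Acly, Elovl5 or Fads1 occurs in another gene.

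The elongases behaved unlike each other. Elovl6, which lengthens the palmitate that Fasn releases, had 7.62, 11.3 and 9.96 FPKM in AMD3100 samples and 14.8, 21.0 and 10.9 FPKM in vehicle samples. Vehicle sample 3 lay below AMD3100 sample 2, so the groups overlapped. The pairs numbered 1 and 2 differed by -0.88 and -0.84 on the log2 scale and the pair numbered 3 by -0.12, with a mean of -0.61 (SE 0.26).

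Elovl5, which lengthens polyunsaturated chains, had 130.2, 129 and 119 FPKM in AMD3100 samples and 138, 128 and 125 FPKM in vehicle samples. Sample 2 was slightly higher with AMD3100 than with vehicle, and both groups covered nearly the same range. The means were 126 ± 5.90 FPKM with AMD3100 and 130.1 ± 6.99 FPKM with vehicle (SD, n = 3 each), a log2 difference of -0.04 (SE 0.08). Its sign turned under quantile scaling (0.069), without vehicle sample 1 (0.00039) and after the length correction given below (0.0044).

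Scd1, one of the stearoyl-CoA desaturases that make oleate and palmitoleate, had by far the largest difference of the members. It stood at 1.95, 3.08 and 3.16 FPKM in AMD3100 samples 1, 2 and 3, against 23.2, 16.0 and 19.2 FPKM in vehicle samples 1, 2 and 3. Every AMD3100 sample was far below every vehicle sample. The same-numbered pairs differed by -3.03, -2.06 and -2.28, the mean log2 difference was -2.46 (SE 0.21), and Scd1 kept 14.0% of its vehicle level. Counted from the most negative, this difference ranked 19 among the 10245 genes.

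Scd2, the other stearoyl-CoA desaturase that these cells expressed, was the most abundant member. It had 185, 238 and 266 FPKM in AMD3100 samples and 324, 336 and 365 FPKM in vehicle samples. The groups did not overlap, and AMD3100 sample 1 was lowest. The log2 difference was -0.58 (SE 0.15), with pairs at -0.80, -0.49 and -0.45, so Scd2 kept 67.3% of its vehicle level. Scd3 was listed at 0 in all 12 libraries and Scd4 stayed under 0.5 FPKM. Scd1 made up 1.04%, 1.28% and 1.17% of summed Scd1 and Scd2 FPKM in AMD3100 samples, against 6.68%, 4.54% and 5.00% in vehicle samples. In both groups most stearoyl-CoA desaturase RNA was thus Scd2. The shared sequence of the family is small, since 4.56% of the 50-base stretches of Scd1 and 3.97% of those of Scd2 occur in other genes.

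Fads1 and Fads2, the delta-5 and delta-6 desaturases of polyunsaturated fatty acid synthesis, lie beside each other on chromosome 19 with 1 predicted gene between them in the RefSeq annotation. Fads1 had 20.3, 26.7 and 18.0 FPKM in AMD3100 samples and 34.0, 34.1 and 35.5 FPKM in vehicle samples. Fads2 had 89.3, 109 and 164 FPKM in AMD3100 samples and 201, 194 and 192 FPKM in vehicle samples. For both genes the vehicle samples were tightly grouped and the AMD3100 samples lower and spread out, and the spread ran differently: AMD3100 sample 3 was the lowest for Fads1 and the highest for Fads2. The log2 difference of Fads1 was -0.67 (SE 0.15), with pairs at -0.72, -0.34 and -0.94. That of Fads2 was -0.74 (SE 0.22), with pairs at -1.16, -0.83 and -0.23. The ratio of Fads1 to Fads2 was 0.227, 0.246 and 0.110 in AMD3100 samples and 0.169, 0.176 and 0.185 in vehicle samples.

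Dbi encodes the protein that binds acyl-CoA esters and keeps them soluble for the enzymes above. It had 161, 178 and 165 FPKM in AMD3100 samples and 314, 337 and 335 FPKM in vehicle samples. The groups were far apart and tight within, at 168 ± 8.80 FPKM with AMD3100 and 329 ± 12.9 FPKM with vehicle (SD, n = 3 each). The pairs were close to each other, at -0.96, -0.92 and -1.02. The mean log2 difference was -0.96 (SE 0.08), and Dbi kept 51.1% of its vehicle level.

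The order of the levels shifted with these differences. With AMD3100 it ran Scd2, Dbi, Elovl5, Fads2, Acly, Fasn, Fads1, Elovl6, Acaca and Scd1, at means of 230 ± 41.1 FPKM for Scd2 and 2.73 ± 0.673 FPKM for Scd1 (SD, n = 3 each). The AMD3100 ranges of Elovl5, Fads2 and Acly overlapped, as did those of Dbi and Fads2. With vehicle the order was Scd2, Dbi, Fads2, Acly, Elovl5, Fasn, Fads1, Scd1, Elovl6 and Acaca, at 342 ± 21.2 FPKM for Scd2 and 8.43 ± 0.638 FPKM for Acaca (SD, n = 3 each). There the ranges of Scd2 and Dbi overlapped, as did those of Scd1 and Elovl6, whereas Acly, at 144 to 148 FPKM, lay above Elovl5, at 125 to 138 FPKM. Scd1 was above Acaca in every vehicle sample and below it in every AMD3100 sample.

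Transcript length moved with the comparison. With all genes tested split into 5 groups of like size by length, the median log2 difference was -0.15 in the group with the shortest transcripts (66 to 1915 bases) and 0.19 in that with the longest (5174 to 123179 bases). Fasn (10050 bases), Acaca (9513 bases), Elovl6 (5951 bases) and Scd2 (5455 bases) stand in the longest group, and Dbi (660 bases) in the shortest. With each pair corrected for length, the difference of Fasn was -0.77, of Acaca -0.58, of Elovl6 -0.75, of Scd2 -0.69 and of Dbi -0.71. Scd1 was at -2.53, Acly at -0.44, Fads1 at -0.66 and Fads2 at -0.71. The 4 members with the longest transcripts thus had larger differences than before, and Dbi a smaller one. After this correction 7 members were called lower with pairing, now with Acaca and without Fads2, beside 6.2% of all genes. Nothing is read from this count either, since these cultures chose the members.

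**Figure D2:**
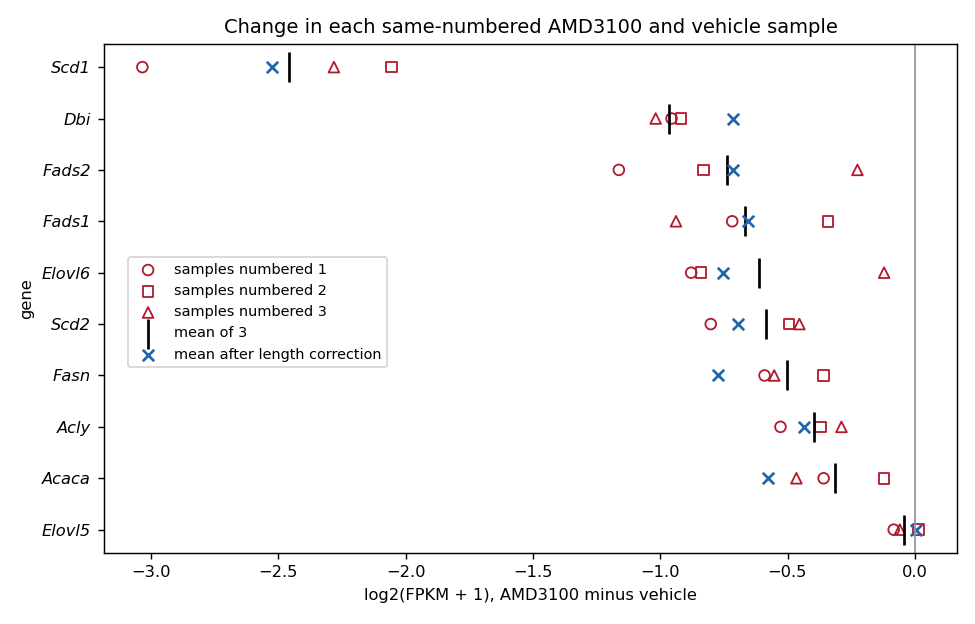
Difference of each gene between AMD3100 and vehicle on the log2(FPKM + 1) scale, for the samples numbered 1 (circles), 2 (squares) and 3 (triangles), with the mean of the 3 pairs (black bar) and the mean after a correction for transcript length (blue cross). All symbols of Scd1 are at -2.06 or below, those of Dbi from samples lie between -1.02 and -0.92, and those of Elovl5 lie between -0.08 and 0.015.

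Some nuclear long RNAs also differed between the groups. Malat1 was at 527, 580 and 920.5 FPKM in AMD3100 samples and 178, 214 and 334 FPKM in vehicle samples. Of 5 nuclear long RNAs listed, 4 passed the filter (Malat1, Neat1, Xist and Kcnq1ot1). Limma with pairing called these 4 higher, beside 9.96% of all genes. Without pairing it called 0 of the 4, and 3 had an unadjusted p under 0.05, beside 21.5% of all genes. These RNAs were added after their values were seen, so nothing is read from the counts. The part of RNA quality in the differences of the members was not tested.

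OP9 cells can turn into fat cells, and fat cells express Scd1, so adipocyte and stromal markers are given beside it. The adipocyte gene Fabp4 was at 17.4, 95.8 and 0 FPKM in AMD3100 samples and 104.8, 359 and 0.842 FPKM in vehicle samples, and limma called it lower with pairing but not without (log2 -1.77, SE 2.46, adjusted p = 0.761 unpaired). Pparg, the master regulator of fat cells, was at 3.77, 3.27 and 0.221 FPKM in AMD3100 samples and 12.4, 3.43 and 0.235 FPKM in vehicle samples. Summed over the 12 adipocyte and preadipocyte markers, the level was 25.9, 103 and 5.21 FPKM with AMD3100 and 123.8, 366 and 3.80 FPKM with vehicle. Of these markers 7 were under 1 FPKM in all 6 cultures (Cebpa, Cfd, Cidec, Dlk1, Lep, Plin1 and Plin4), with Lep listed at 0. Adipoq was listed at 0 in the AMD3100 samples and at 1.08, 0.597 and 0.179 FPKM in the vehicle samples.

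The samples numbered 3 had little adipocyte marker RNA in either group. Scd1 there was 3.16 FPKM with AMD3100 and 19.2 FPKM with vehicle, a log2 difference of -2.28. The 12 stromal markers summed to 177, 205 and 25.6 FPKM in AMD3100 samples and 160.0, 199.9 and 15.3 FPKM in vehicle samples, with Dcn and Lum listed at 0. The sums are mostly Pdgfrb, at 144, 186 and 11.2 FPKM in AMD3100 samples and 136, 160.0 and 4.203 FPKM in vehicle samples. Cxcl12 did not follow Pdgfrb, at 15.9, 8.58 and 7.93 FPKM in AMD3100 samples and 10.4, 12.7 and 3.84 FPKM in vehicle samples. It was higher with AMD3100 in the samples numbered 1 and 3 and lower in those numbered 2. Fn1 had 7.89, 5.20 and 3.98 FPKM in AMD3100 samples and 7.36, 15.5 and 4.38 FPKM in vehicle samples. Sparc had 3.00, 1.97 and 0.659 FPKM in AMD3100 samples and 2.39, 3.81 and 1.14 FPKM in vehicle samples. Both were thus higher with AMD3100 in the samples numbered 1 and lower in those numbered 2 and 3. Of 6 stromal markers tested, 4 had a log2 difference below 0 and 2 above 0. Limma with pairing called 0 of the 6, beside 9.92% lower and 9.96% higher of all genes. The part of fat or stromal cells in the difference of Scd1 was not tested.

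**Figure D3:**
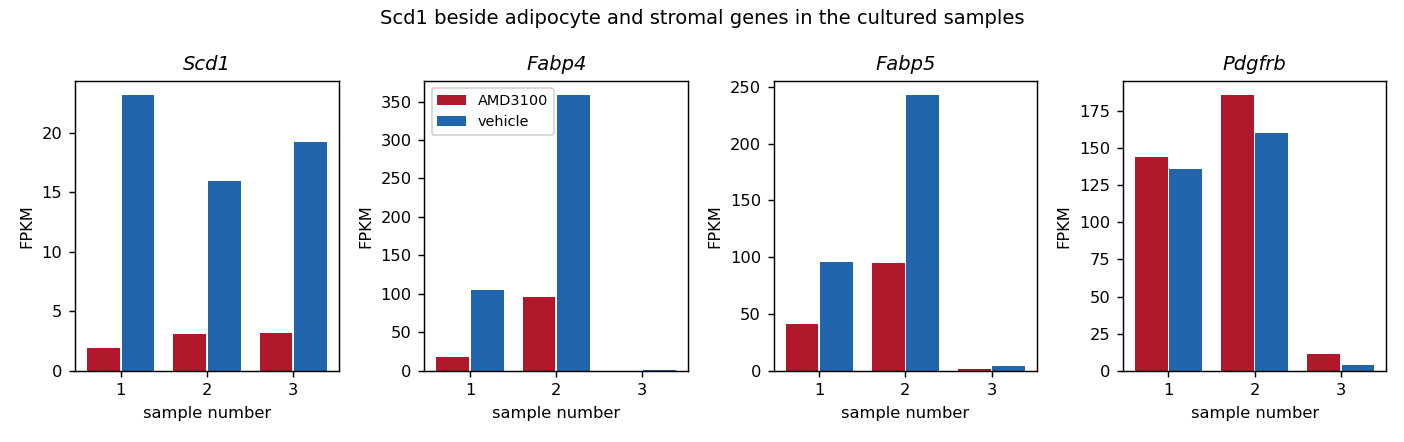
FPKM of Scd1, the fat cell gene Fabp4, its relative Fabp5 and the stromal gene Pdgfrb by sample number, AMD3100 (red) left of vehicle (blue). In the samples numbered 3, Fabp4 is 0 with AMD3100 and 0.842 with vehicle, while Scd1 is 3.16 with AMD3100 and 19.2 with vehicle.

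The genes that control lipogenesis were taken from a list of 16, of which 12 passed the filter of a mean of 1 FPKM. With AMD3100 and pairing limma called 3 lower and 1 higher, beside 9.92% lower and 9.96% higher of all genes, and their median log2 difference was -0.12. Insig1, which holds the SREBP precursor in the endoplasmic reticulum and is itself an SREBP target, had 16.9, 21.6 and 12.01 FPKM in AMD3100 samples and 40.7, 42.0 and 28.8 FPKM in vehicle samples, a log2 difference of -1.11. Srebf1 had 29.6, 28.2 and 33.7 FPKM in AMD3100 samples and 42.5, 40.3 and 52.1 FPKM in vehicle samples, a difference of -0.54. For both genes all AMD3100 samples lay below all vehicle samples. Mid1ip1, an activator of acetyl-CoA carboxylase, was lower by pairs (-0.48) although sample 2 was low in both groups. Mbtps2, the site-2 protease that frees SREBP, was higher (0.34). Srebf2, which acts mainly on cholesterol genes, differed by -0.18 and was not called.

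Enzymes that supply acetyl-CoA and NADPH gave 6 lower and 0 higher of 12 tested with pairing, beside the same 9.92% and 9.96% of all genes, at a median of -0.25. Cytosolic isocitrate dehydrogenase Idh1 had 12.9, 12.5 and 6.32 FPKM in AMD3100 samples and 28.7, 26.4 and 15.3 FPKM in vehicle samples, a log2 difference of -1.09. The samples numbered 3 were lowest in both groups, and the groups did not overlap. Pgd, of the pentose phosphate pathway, differed by -0.63, and Acss2, which makes acetyl-CoA from acetate, by -0.54. The malic enzyme gene Me1, another NADPH source, was under the filter, at 0.215 FPKM at most.

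Of other desaturases and elongation enzymes, limma with pairing called 0 of 7 tested, beside 9.92% lower and 9.96% higher of all genes. Without pairing, 0 of the 7 had an unadjusted p under 0.05, beside 21.5% of all genes. Their median was -0.13. Elovl1, which makes very long saturated chains, had 36.7, 32.3 and 31.3 FPKM in AMD3100 samples and 49.5, 34.0 and 30.0 FPKM in vehicle samples, with overlapping groups. Hsd17b12, the reductase that all elongases share, had 52.2, 56.0 and 53.4 FPKM in AMD3100 samples and 68.5, 62.5 and 50.7 FPKM in vehicle samples, again with overlap. Acacb, the mitochondrial acetyl-CoA carboxylase, stayed under 1 FPKM. Among acyl-CoA synthetases and fatty acid binding genes 1 was lower and 1 higher of 10 with pairing, a share close to the 9.92% and 9.96% of all genes. The lower one, Fabp5, had 41.1, 95.1 and 1.23 FPKM in AMD3100 samples and 95.9, 243 and 4.19 FPKM in vehicle samples, and so ran from sample to sample like Fabp4. The higher one was Acbd6 (0.40), another acyl-CoA binding protein, in the opposite direction to Dbi.

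Over all 85 other lipid genes tested, of 113 listed, pairing gave 21 lower and 4 higher, beside 9.92% lower and 9.96% higher of all genes. Their median was -0.16. Without pairing limma called 0 of the 85, beside 0.127% of all genes, and 19 had an unadjusted p under 0.05, beside 21.5% of all genes. The lists were set with results of these cultures known.

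For Scd1 and Dbi, the genes most alike over the 6 cultures were found by the root mean square difference of centred log2(FPKM + 1). Nearest to Scd1 were Pmvk (0.502), a kinase of cholesterol synthesis, Txnip (0.555), which binds thioredoxin, and Rmrp (0.614), an RNA of RNase MRP. None came close, since Scd1 had a larger difference than all 3: Pmvk, the nearest, had 7.90, 5.08 and 7.75 FPKM in AMD3100 samples and 29.7, 18.5 and 23.2 FPKM in vehicle samples. Nearest to Dbi were BC002163 (0.0729), Pole3 (0.0757), a subunit of DNA polymerase epsilon, and Pcna (0.0930), the sliding clamp of DNA replication. Pcna had 129, 144 and 125 FPKM in AMD3100 samples and 215, 236 and 240.1 FPKM in vehicle samples.

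In the tumours the members did not separate by genotype as a group. Their summed level was 262, 386 and 234 FPKM in Cxcr4-/- tumours 5, 7 and 8, against 420.0, 355 and 351 FPKM in Cxcr4+/+ tumours 1, 2 and 4. Limma called 0 of the 10, beside 0.0372% of all 10741 genes, and at an unadjusted p under 0.05 it passed 1 member, Scd2, beside 4.28% of all genes. The median log2 difference was -0.21 for the members and -0.026 for all genes. An exact permutation test of 3 against 3 cannot give a p under 0.1.

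Scd2 was the member whose genotypes did not overlap, which held in the lower direction for 5.2% of all genes. It had 20.9, 25.9 and 26.5 FPKM in Cxcr4-/- tumours 5, 7 and 8, against 107, 53.1 and 60.3 FPKM in Cxcr4+/+ tumours 1, 2 and 4. The knockout tumours were close together and well below the lowest wild-type tumour. The means were 24.4 ± 3.09 FPKM in knockout tumours and 73.4 ± 29.1 FPKM in wild-type tumours (SD, n = 3 each). The log2 difference was -1.49 (SE 0.34, unadjusted p = 0.0028, adjusted p = 0.986 in limma), and it lay between -1.68 and -1.19 when any 1 tumour was left out. It is therefore reported as not passing the test over all genes, and genotype cannot be told apart from sex here either.

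**Figure D4:**
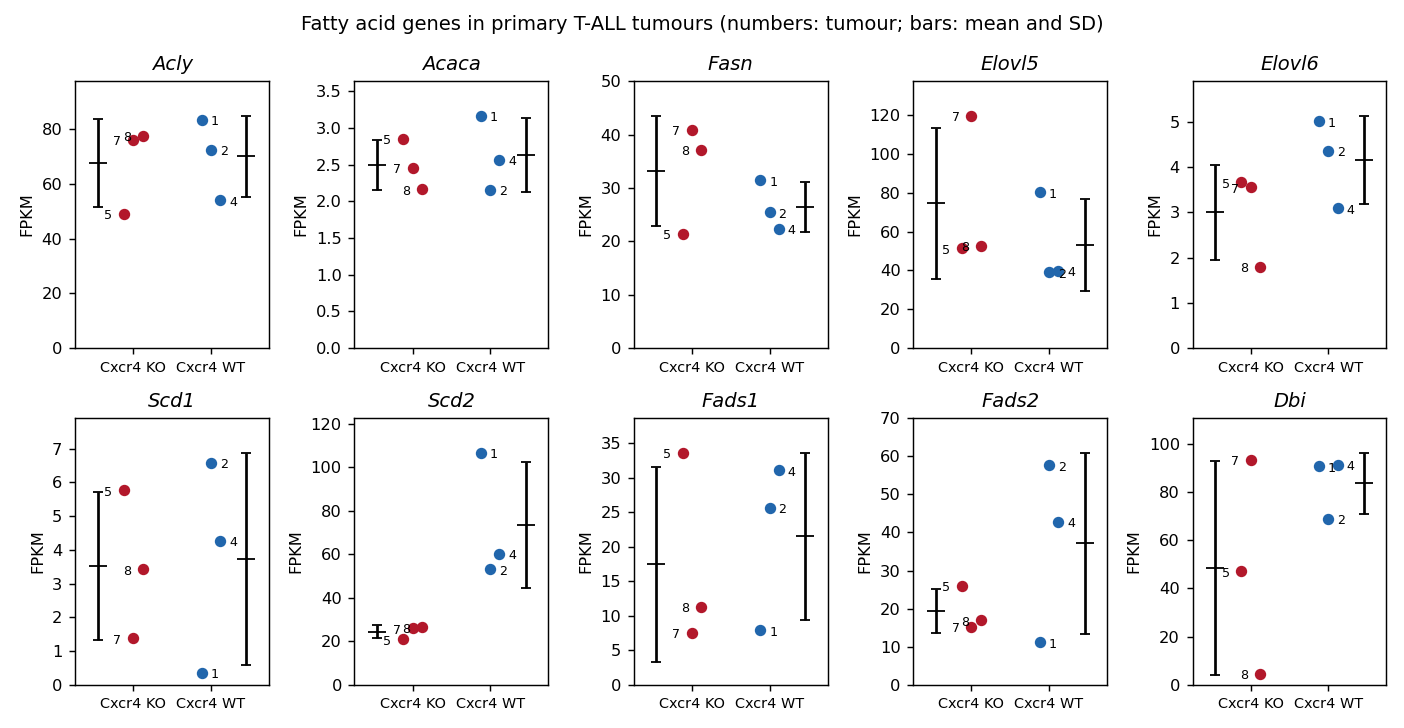
FPKM of the 10 genes in Cxcr4 KO tumours (red, left) and Cxcr4 WT tumours (blue, right); digits give the tumour number and bars give mean and SD of 3. Scd2 is at 20.9 to 26.5 FPKM in KO tumours and at 53.1 to 107 FPKM in WT tumours, and the groups of the other 9 genes overlap.

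Scd1 spanned a wide range within each genotype. It had 5.76, 1.38 and 3.43 FPKM in knockout tumours 5, 7 and 8 and 0.355, 6.58 and 4.28 FPKM in wild-type tumours 1, 2 and 4. The lowest and the highest tumour were both wild type, and the log2 difference was 0.13 (SE 0.75, adjusted p = 0.998 in limma). It was 0.63 without wild-type tumour 2 and -0.61 without wild-type tumour 1. Scd1 made up 21.6%, 5.05% and 11.5% of summed Scd1 and Scd2 FPKM in knockout tumours and 0.332%, 11.0% and 6.62% in wild-type tumours.

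Fads1 had 33.6, 7.51 and 11.3 FPKM in knockout tumours and 7.88, 25.6 and 31.1 FPKM in wild-type tumours. Fads2 had 25.9, 15.2 and 16.9 FPKM in knockout tumours and 11.1, 57.7 and 42.8 FPKM in wild-type tumours. For both genes, wild-type tumour 1 and knockout tumours 7 and 8 were low, whatever the genotype. The log2 differences were -0.35 for Fads1 (adjusted p = 0.995 in limma) and -0.67 for Fads2 (adjusted p = 0.986 in limma). Both rested on single tumours: that of Fads1 was 0.071 without knockout tumour 7 and -0.94 without knockout tumour 5, and that of Fads2 was -0.22 without wild-type tumour 2 and -1.35 without wild-type tumour 1. The ratio of Fads1 to Fads2 was 1.30, 0.494 and 0.668 in knockout tumours and 0.708, 0.444 and 0.726 in wild-type tumours.

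T cell marker RNA ran opposite to Scd1 across the tumours, and for the most part to Fads1 and Fads2, but not to Scd2. The 15 markers summed to 2435, 5168 and 3932 FPKM in knockout tumours 5, 7 and 8 and to 8438, 2105 and 2620 FPKM in wild-type tumours 1, 2 and 4. The tumours ordered by Scd1 stand in exactly the reverse order of these sums, over 6 tumours and both genotypes. Scd2 did not follow this order: it was highest, at 107 FPKM, in wild-type tumour 1, which had the highest sum. Fads3, a relative of Fads2, was at 4.51, 3.39 and 3.07 FPKM in knockout tumours and at 0, 16.9 and 7.12 FPKM in wild-type tumours. Elovl5 ran with the marker sums at the high end, at 51.3, 119.6 and 52.6 FPKM in knockout tumours and 80.3, 39.0 and 39.8 FPKM in wild-type tumours, so that the tumours with the most T cell marker RNA, wild-type 1 and knockout 7, held the most Elovl5. Macrophage markers summed to 63.0, 89.1 and 133 FPKM in knockout tumours and 59.5, 359.6 and 14.6 FPKM in wild-type tumours, and neutrophil markers to 68.5, 345 and 171 FPKM in knockout tumours and 215, 3262 and 5.52 FPKM in wild-type tumours. The part of cell composition in these levels was not tested, and the order was noticed after the values were seen.

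**Figure D5:**
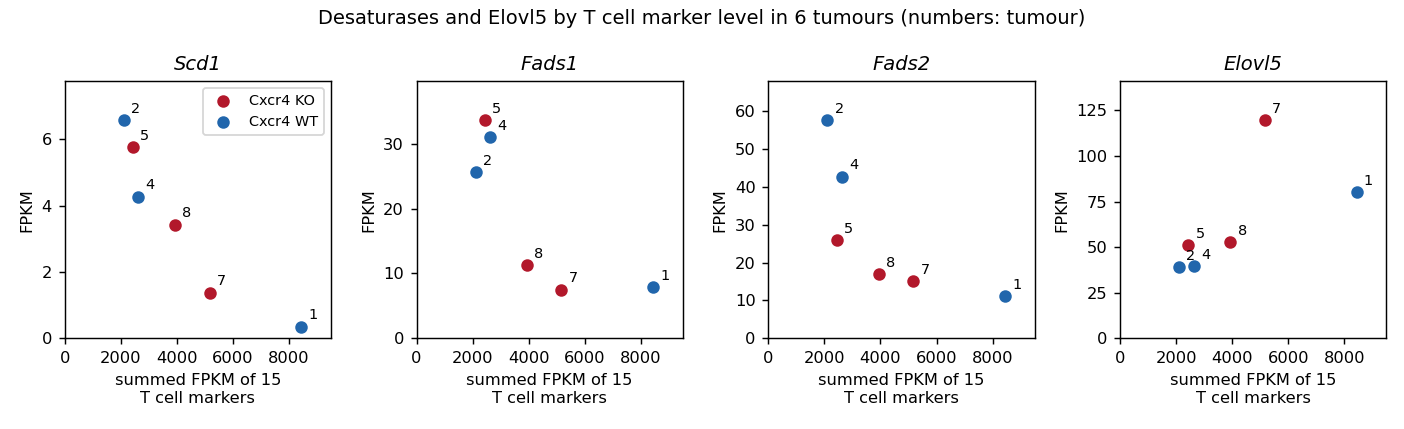
FPKM of Scd1, Fads1, Fads2 and Elovl5 against the summed FPKM of 15 T cell markers in the 3 Cxcr4 KO tumours (red) and 3 Cxcr4 WT tumours (blue), with tumour numbers. Scd1 lies lowest, at 0.355 FPKM, in WT tumour 1, which has the highest marker sum, 8438 FPKM, and highest, at 6.58 FPKM, in WT tumour 2, which has the lowest, 2105 FPKM.

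The remaining members overlapped between genotypes. Acly had 49.1, 76.1 and 77.5 FPKM in knockout tumours and 83.4, 72.5 and 54.0 FPKM in wild-type tumours, a log2 difference of -0.06. Fasn had 21.5, 40.9 and 37.2 FPKM in knockout tumours and 31.5, 25.5 and 22.3 FPKM in wild-type tumours, a difference of 0.28. Thus knockout tumour 5 was the lowest of all 6 for both of these genes. Acaca had 2.85, 2.46 and 2.17 FPKM in knockout tumours and 3.17, 2.16 and 2.56 FPKM in wild-type tumours (-0.05). Elovl6 had 3.67, 3.56 and 1.79 FPKM in knockout tumours and 5.02, 4.36 and 3.10 FPKM in wild-type tumours (-0.38). Dbi had 47.2, 93.5 and 4.61 FPKM in knockout tumours and 90.7, 68.8 and 91.2 FPKM in wild-type tumours. Its log2 difference of -1.51 rested on knockout tumour 8, the library with the most genes listed at 0, and was -0.31 without it. Leaving out 1 tumour moved the difference of Fasn between 0.11 (without knockout 7) and 0.56 (without knockout 5), that of Elovl5 between 0.055 (without knockout 7) and 0.79 (without wild type 1), and that of Elovl6 between -0.54 (without wild type 4) and -0.14 (without knockout 8). Those of Acly (between -0.23 without wild type 4 and 0.15 without knockout 5) and Acaca (between -0.15 without wild type 2 and 0.053 without wild type 1) changed sign. None of these 5 differences nor that of Elovl5 (0.45) passed limma, with adjusted p from 0.986 to 0.998.

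Of 87 other lipid genes tested in the tumours, limma called 0 at an adjusted p under 0.05, and 2 had an unadjusted p under 0.05, beside 4.28% of all genes. Srebf1 had 19.2, 20.4 and 15.7 FPKM in knockout tumours and 31.5, 30.9 and 23.5 FPKM in wild-type tumours, with no overlap (log2 -0.60, adjusted p = 0.986 in limma). Fabp5 had 5.14, 4.93 and 0 FPKM in knockout tumours and 20.0, 11.7 and 42.3 FPKM in wild-type tumours, also with no overlap (log2 -2.77, adjusted p = 0.986 in limma). Plin2 (log2 -0.80) and Elovl1 (log2 -0.58) were lower without overlap as well, which held for 5.2% of all genes. Cpt1a (log2 0.60) and Srebf2 (log2 0.069) differed in the other direction, with overlapping groups. Insig1 was at 8.96, 10.7 and 0.482 FPKM in knockout tumours and at 7.01, 6.21 and 5.79 FPKM in wild-type tumours, with knockout tumour 8 again apart. Fabp4, the fat cell gene that varied in the cultures, was at most 6.22 FPKM in any tumour.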

How the data were processed

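Strand-specific libraries of 12 samples were read for 50 bases from 1 end, per the labels' protocols. The authors deposited FPKM values in 2 tables of 6 samples each, which were analysed separately. CASAVA, TopHat and the build mm9 are named, per the submitters' processing notes. The sources used here do not give the program behind the FPKM values or its use of strand. Read totals are unknown. From steps in low FPKM values, depth relative to vehicle 1 was estimated at 1.06, 1.25 and 1.21 for AMD3100 samples 1 to 3 (over 62, 49 and 40 genes) and at 0.908 and 0.757 for vehicle samples 2 and 3, where it rests on only 9 and 3 genes; no such estimate was made for the tumours. Gapdh was listed at or near 0 in every library, so a 0 may be a failed estimate.

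Log2 values were computed from the deposited FPKM with a pseudocount of 1, and genes whose mean reached 1 FPKM over the 6 samples were kept. Each comparison was fitted with limma 3.58.1 in R 4.3.3 (eBayes with trend, two-sided). P-values were adjusted over all kept genes by Benjamini-Hochberg, and the deposited files hold no p-value. Calls needed an adjusted p under 0.05. Whether the samples of a group are separate cultures or animals is not stated, so the p-values measure only the spread between these libraries, which may be technical.

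Same-numbered ex vivo samples deviated together (correlations 0.467, 0.579 and 0.619 for numbers 1 to 3, over genes), so the fit with the number as a block is given beside the unpaired one. What the number stands for is not in the labels. The length correction used GENCODE transcript lengths on GRCm38, known for 98.4% of the kept genes. No coordinate of mm9 was used. Genes named outside the 10 were, per lipid list, the called ones with the 3 largest changes in the paired fit, a fixed set of lipid genes, abundant or defining members of marker lists, and the 3 most alike genes; Mbtps2, Fads3, Scd3, Scd4, Pparg, Adipoq, Fn1, Sparc, the nuclear long RNAs and Eif2s3y were added after their values were seen. The members and lists were chosen with earlier results of these data known. The fits were tested on simulated data. Alternatives were other pseudocounts, filters, scalings, variance models and thresholds, leaving out each library or pair, the block and the length correction.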

Additional observations from a re-analysis of the deposited data

How the results depend on the processing

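In the cultures, the count of genes called by limma was 13. It was 8 with no filter, 188 at a mean of 5 FPKM, 33 with trimmed factors, 3 with quantile scaling, 1 with no trend, 847 at an adjusted p under 0.10 and 3 to 5 without 1 library. The count of members called was 2, with 1 for no filter, 0 for quantile scaling, 0 for no trend, 6 at an adjusted p under 0.10 and 0 without any 1 library. The count of other lipid genes called was 0, with 1 at a mean of 5 FPKM and 9 at an adjusted p under 0.10. With the replicate block these counts were 2036 genes, 7 members and 25 other lipid genes. The block with length correction gave 1269, 7 and 14. The block with median-of-ratios factors gave 2033, 6 and 23, and with quantile scaling 1914, 5 and 23, both chosen after seeing the data. Leaving out a pair under the block gave 7 to 1207 genes, 0 to 7 members and 0 to 13 other lipid genes; the high ends are without the samples numbered 3. The cause was not tested, except that fits without a library or pair have fewer samples.

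Of the single members' differences in the cultures, 188 kept direction and side of the threshold, 27 gained the call, 21 lost it and 4 changed sign, all of Elovl5: 0.069 with quantile scaling, with or without the block, 0.0044 with the block and length correction, and 0.00039 without vehicle 1 (-0.073 to 0.00039 without 1 library). In the tumours 159 stayed and 8 changed sign: Acaca at 0.072 with quantile scaling and between -0.15 and 0.053 without 1 tumour (above 0 without knockout 8 or wild type 1), Scd1 between -0.61 and 0.63 (below 0 without knockout 5 or wild type 1), Acly between -0.23 and 0.15 (above 0 without knockout 5 or wild type 1) and Fads1 between -0.94 and 0.071 (above 0 without knockout 7). The tumour count of 4 called genes was 0 with no filter and 0 to 4 without 1 tumour. At a mean of 5 FPKM 7 members could be tested in the tumours. On the gene strand CCAAT was in 2 member windows, against 5 on both strands. The tumours share no numbers between genotypes, so no block was fitted there.

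With 3 samples a group and unknown read totals, small differences of low genes such as Acaca and Elovl6 are poorly resolved. FPKM gives no counting error.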

Other observations

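In neighbouring lipid pathways most genes were not called between the cultures. Of the fatty acid oxidation genes, limma with pairing called 5 lower, 0 higher and 15 of 20 not at all, beside 9.92% lower and 9.96% higher of all genes, at a median log2 difference of -0.21. Acaa2, the thiolase of the last oxidation step in mitochondria, had 64.1, 58.5 and 41.1 FPKM in AMD3100 samples and 122, 91.7 and 75.2 FPKM in vehicle samples, a difference of -0.80. All AMD3100 samples lay below all vehicle samples. Etfb, an electron carrier of the same pathway, differed by -0.45, and Cpt2, of the carnitine shuttle, by -0.40. Cpt1a, the entry step of that shuttle, had 21.1, 25.5 and 46.1 FPKM in AMD3100 samples and 28.5, 22.7 and 49.9 FPKM in vehicle samples, with overlapping groups, and was not called.

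Mitochondrial fatty acid synthesis is a separate pathway that makes the lipoate precursor. Of its 8 genes tested, limma with pairing called 3 lower, Cbr4 (-0.69), Mcat (-0.39) and Mecr (-0.36), 0 higher and 5 not at all. Among 16 glycerolipid genes it called 3 lower, 2 higher and 11 not at all, at a median of 0.012. Both counts stand beside 9.92% lower and 9.96% higher of all genes. Pcyt2, which makes CDP-ethanolamine for phosphatidylethanolamine, had 22.8, 21.2 and 16.0 FPKM in AMD3100 samples and 43.9, 41.5 and 42.5 FPKM in vehicle samples, a difference of -1.07. The groups were far apart. The choline kinase gene Chka differed by -0.56. Agpat1, which makes phosphatidic acid, was higher (0.41), and the lipid droplet coat gene Plin2 differed by 0.02 and was not called. Limma without pairing called none of these genes at an adjusted p under 0.05.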
